A study of Arabidopsis thaliana with 12 samples.

Results

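The genes LHB1B2 (AT2G34420), PSBY (AT1G67740), PSBW (AT2G30570), PSAN (AT5G64040) and PRK (AT1G32060) were described across 12 array samples of Arabidopsis thaliana. They were chosen by name, from photosystem, light-harvesting and phosphoribulokinase genes for which the platform annotation lists a probe with exactly 1 gene. PSB27, another photosystem II gene with such a probe, is not among the 5 and is described further below. Each of the 5 genes had 1 such probe, out of 691 genes with a probe of their own on the array. The samples were 6 of the mutant prors2 (prors2_dark) and 6 of wild type (WT2_dark), on the Columbia 0 background by their labels, and all plants of both groups had been kept in the dark overnight. Prolyl-tRNA synthetase, which joins proline to its tRNA, is absent in prors2 by the description in the labels. The allele, the age of the plants, the tissue, the meaning of the 2 in WT2 and whether samples came from separate plants are, in the sources used here, not given. The source label reads wild type for the mutant samples too, so the groups rest on the sample titles. No probe of its own lists PRORS1 (AT5G52520), the prolyl-tRNA synthetase gene of plastids and mitochondria, so the mutant label could not be checked on it.

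In the light reactions of photosynthesis, light-harvesting proteins pass energy to photosystem II and photosystem I, which drive electrons through the thylakoid membrane and so make ATP and NADPH. The Calvin cycle in the stroma spends both to fix CO2. All 5 genes are nuclear: their proteins are made in the cytosol and imported into the chloroplast, where they meet subunits made from plastid genes. Transcripts of this class are abundant in leaves and are known to respond to light and to the state of the chloroplast.

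The deposited values are intensities in arbitrary units, on a scale that runs from 0 to a ceiling shared by all samples. All 5 genes were above 0 and below the ceiling in all 12 samples. The median intensity over the 3439 probes ran from 0.240 to 0.403 in prors2 and from 0.0620 to 0.0852 in wild type, and 431 to 609 probes were listed at 0 in prors2 against 746 to 926 in wild type. At the ceiling were 2 to 3 probes in prors2 samples and 5 to 6 in wild-type samples. Whether the scale is comparable between samples as deposited is unknown, so each gene was examined on 4 scales, by its rank within the array and by its ratio to the other 4 genes in the same sample. Within a group, numbers 1 and 2, 3 and 4, and 5 and 6 form 3 sets of similar samples. Over the 5 genes, the 2 samples of such a set differed by at most 1.37-fold. The means of the 3 sets of a group differed by up to 3.29-fold for PSAN in prors2, and by at most 1.82-fold for the other genes. For PRK in wild type the set means differed less, by 1.14-fold, than samples within a set, by up to 1.37-fold. For PSBW the 2 were close, at 1.28-fold and 1.25-fold in wild type. Since nothing says that the samples are separate cultures or plants, p-values reflect the spread among arrays, possibly a technical one, and would be too small for sets that share 1 RNA. Levels are of transcripts in bulk RNA, where fewer cells of a type and less RNA per cell cannot be told apart.

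LHB1B2, also named LHCB1.5, encodes a chlorophyll-binding antenna protein of photosystem II, one of several closely similar LHCB1 proteins. Its intensity was lowest at 13.0, had a median of 21.7 and reached 26.8 in prors2, against a lowest value of 34.9, a median of 38.1 and a highest value of 41.4 in wild type. The groups did not overlap: all 6 prors2 samples lay below all 6 wild-type samples. The means were 20.6 ± 5.21 in prors2 and 38.0 ± 2.74 in wild type (SD, n = 6 each), a ratio of 0.543. Of the 1940 probes above 0 in all 12 samples, 4.28% were lower in prors2 without overlap and 53.6% did not overlap in either direction. Whether the LHB1B2 probe also binds transcripts of the other LHCB1 genes was not tested.

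PSBY is a small membrane protein of photosystem II, cut from a larger precursor in the chloroplast. Its intensity ran from 1.67 to 2.51 with a median of 2.17 in prors2, and from 1.99 to 3.98 with a median of 3.37 in wild type. The groups overlapped through wild-type samples 3 and 4, whose mean was 2.11, while the other 4 wild-type samples lay at 3.34 or above and so above all prors2 samples. The group means were 2.12 ± 0.329 in prors2 and 3.10 ± 0.809 in wild type (SD, n = 6 each).

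PSBW, another small membrane protein of photosystem II, is known to help hold the photosystem and its antenna together. Its intensity ran from 31.5 to 44.5 with a median of 36.0 in prors2, and from 33.9 to 49.9 with a median of 38.0 in wild type. The 2 ranges overlapped over most of their length. PSBW had the lowest coefficient of variation of the 5 genes in prors2, 11.9%, with 15.1% in wild type.

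PSAN is a subunit of photosystem I on the lumen side, where plastocyanin delivers electrons. Its intensity ran from 2.95 to 10.1 with a median of 6.24 in prors2, and from 7.46 to 11.3 with a median of 9.35 in wild type. The prors2 samples fell into 3 levels by set of consecutive numbers: a mean of 6.24 for samples 1 and 2, 2.99 for samples 3 and 4, and 9.83 for samples 5 and 6. The first 4 lay below all wild-type samples, while samples 5 and 6 lay within the wild-type range. The coefficient of variation was 48.4% in prors2 and 18.1% in wild type.

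PRK is phosphoribulokinase, the Calvin cycle enzyme that uses ATP to regenerate the CO2 acceptor ribulose bisphosphate. Its intensity ran from 2.68 to 5.27 with a median of 3.68 in prors2, and from 3.39 to 4.85 with a median of 4.47 in wild type. The groups overlapped, with 2 prors2 samples (3 and 4) below all wild-type samples and 1 (sample 5) above all of them. The means were 3.71 ± 0.893 in prors2 and 4.37 ± 0.508 in wild type (SD, n = 6 each).

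**Figure D1:**
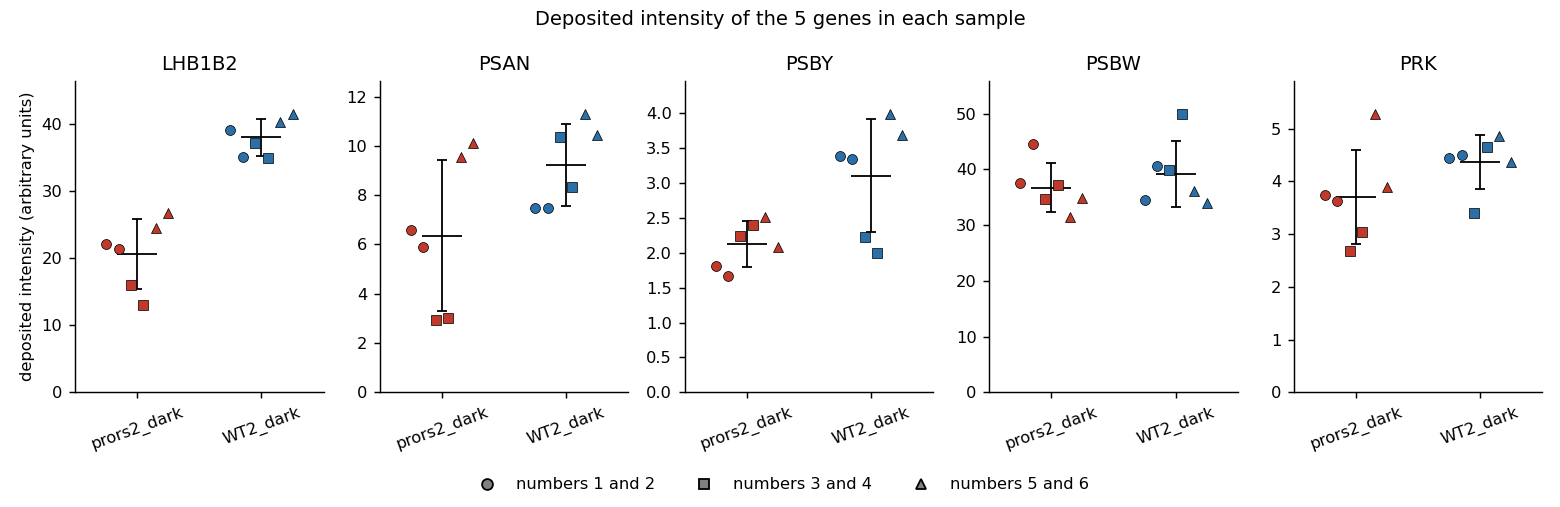
Deposited intensity (arbitrary units) of each gene in the 6 prors2_dark and 6 WT2_dark samples. Points are samples with a symbol for each set of consecutive numbers, the horizontal line is the group mean and the bar its SD. LHB1B2 has no overlap between groups, PSAN in prors2 lies at 3 levels by set, and the PSBW ranges overlap over most of their length.

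Together the 5 probes made up 2.06% to 2.30% of the summed intensity of all probes in prors2 samples, against 3.10% to 3.83% in wild-type samples. PSBW and LHB1B2 have the highest intensities of the 5, so this share mainly describes them. Of these, LHB1B2 had means of 20.6 in prors2 and 38.0 in wild type, while PSBW had 36.7 and 39.2. The share also depends on the summed intensity, which had a mean of 3195 in prors2 and 2801 in wild type.

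Comparing prors2 with wild type addresses how these transcripts differ after a night of darkness when the synthetase is affected. Quantile normalization of all features, with zeros set to missing, gave the values above 0 of every sample the same distribution on the log2 scale. The groups differed in how many values were set to missing, 431 to 609 per sample in prors2 and 746 to 926 in wild type. None of the 5 genes passed the threshold after this normalization (limma, Benjamini-Hochberg adjusted p under 0.05 over 2684 features). Of all features 45.6% passed, 25% as higher and 20.6% as lower. The differences, prors2 minus wild type, had 95% intervals from -0.84 to 0.01 on the log2 scale for LHB1B2, from -0.87 to -0.05 for PSBY, from -0.03 to 0.81 for PSBW, from -1.01 to 0.36 for PSAN and from -0.32 to 0.45 for PRK. These intervals are not adjusted for the number of features, and PSBY was the only 1 of the 5 with an unadjusted p under 0.05, 0.0323. The median over the 5 genes was -0.33, with 3 of 5 below 0, and the median over all tested features was 0.09.

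The scale set how many of the 5 genes passed. As deposited, 2 of the 5 passed as lower, LHB1B2 with a log2 difference of -0.92 (limma, adjusted p = 7.96e-04) and PSBY with -0.52 (adjusted p = 0.0367), where 5.37% of all features passed as lower and 69.6% as higher, and the median difference over all features was 1.49. Among the 671 brightest features, which include all 5 genes, 17.9% passed as lower on that scale. When the 1940 features above 0 in every sample were quantile-normalized among themselves, LHB1B2 and PSBY again passed as lower, where 26.7% of features did. With each sample centred on its median, 5 of 5 passed as lower, where 33.7% of all features did and 24.3% passed as higher. The 5 genes are bright: by mean normalized level PSBW was 11th, LHB1B2 15th, PSAN 60th, PRK 93rd and PSBY 145th among the 2684 features. Among the 671 brightest features, 75.4% passed as lower with median centring and the median difference was -1.24, against 8.35% and 0.55 among the 671 dimmest. The share of the 5 genes that passed as lower on that scale therefore stands beside a background of 75.4% for bright features. Direction turned with the scale for PSBW, which was at 0.39 after quantile normalization and at -1.67 with median centring, and for PRK, at 0.06 and -1.85.

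**Figure D2:**
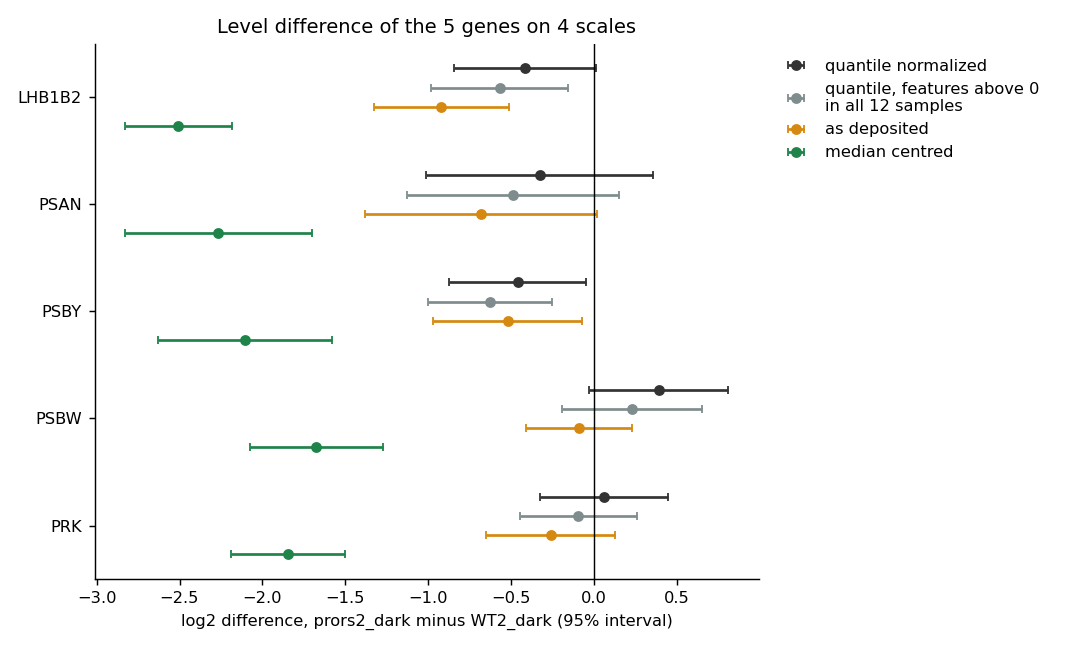
Difference in log2 level, prors2_dark minus WT2_dark, of each gene on 4 scales, with the 95% interval of the limma fit over 6 against 6 samples. LHB1B2, PSAN and PSBY have differences below 0 on all 4 scales, while PSBW and PRK lie on both sides of 0.

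Averaging each set of consecutive samples, which leaves 3 against 3 values, none of the 5 genes passed after quantile normalization, where 20.9% of 2459 features passed. Averaging also ended the calls made among the features above 0 in every sample (limma, adjusted p = 0.197 for LHB1B2 and 0.153 for PSBY) and that of PSBY as deposited (0.209). On deposited values LHB1B2 still passed as lower (limma, adjusted p = 0.0376), where 1.83% of features passed as lower. All 5 passed as lower with median centring, where 26.3% of features did. The shares among bright features were not calculated with averaging.

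The sets of consecutive numbers gave different differences for most of the 5 genes. Numbers 3 and 4 stand apart as whole arrays in both groups: their median intensity was 0.240 and 0.244 in prors2, where the other samples had 0.362 to 0.403, and 0.0620 and 0.0646 in wild type, where the others had 0.0800 to 0.0852. Probes listed at 0 were 606 and 609 in these prors2 samples, with 431 to 479 in the others, and 926 and 916 in these wild-type samples, with 746 to 791 in the others. The part of this in the results below was not tested. For PSAN the quantile-normalized difference was 0.08 in samples 1 and 2, -1.35 in samples 3 and 4, and 0.30 in samples 5 and 6, and only samples 3 and 4 were below 0. LHB1B2 had -0.30, -0.92 and -0.04, below 0 in all 3 sets and furthest in samples 3 and 4. PSBY ran the other way, with -0.93, 0.16 and -0.60, and its samples 3 and 4 were the set above 0. Without samples 3 and 4 of both groups, PSBY was at -0.77 and passed (limma, adjusted p = 0.0115), LHB1B2 was at -0.17 (adjusted p = 0.382) and PSAN at 0.19 (adjusted p = 0.521). PSBW was above 0 in all 3 sets, at 0.49, 0.09 and 0.59, and PRK had -0.01, -0.25 and 0.45. Differences between sets were not tested.

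**Figure D3:**
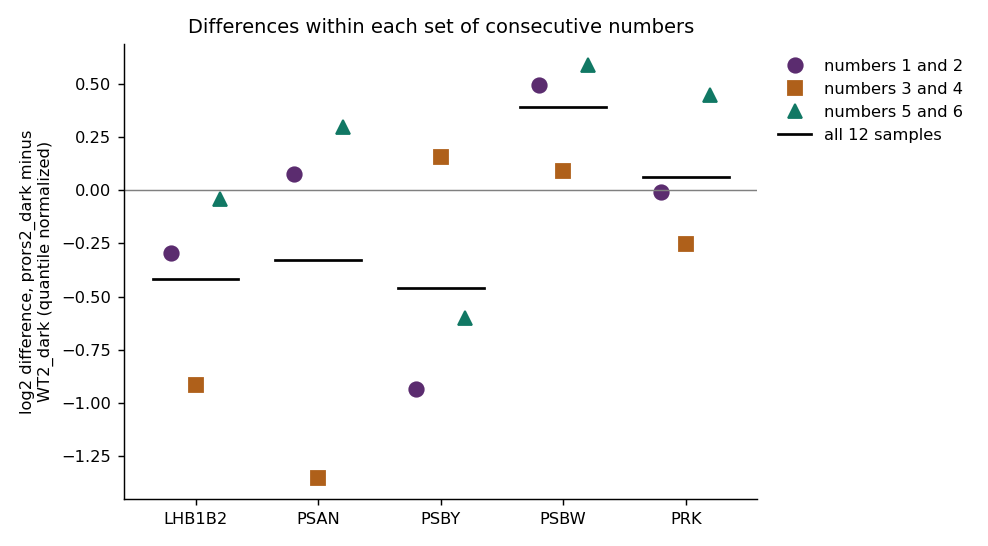
Quantile-normalized log2 difference, prors2_dark minus WT2_dark, within each set of 2 against 2 samples with consecutive numbers (symbols) and over all 12 samples (lines). Samples 3 and 4 give the lowest value of LHB1B2, PSAN, PSBW and PRK and the highest value of PSBY.

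The rank of a probe within its own array does not change with any monotone rescaling of that array. LHB1B2 had a mean percentile rank of 99.43 ± 0.191 in prors2 and 99.65 ± 0.0286 in wild type (SD, n = 6 each), and the 2 groups did not overlap in rank. The exact permutation p was 0.00216, the smallest possible for groups of 6, and 0.00619 after Benjamini-Hochberg adjustment over all 3439 probes, of which 32.5% passed as lower and 52.1% in either direction. PSBY also ranked lower, at 94.5 ± 1.20 in prors2 and 96.3 ± 0.477 in wild type (SD, n = 6 each; exact permutation, adjusted p = 0.0111). The median rank difference over all 3439 probes was -2.12 percentile points, where PSBY had -1.87 and LHB1B2 -0.22. The typical probe thus also ranked lower in prors2, and shares among bright probes were not calculated for ranks. The other 3 genes did not pass. PSAN was at 97.8 in prors2 and 98.5 in wild type (exact permutation, adjusted p = 0.257). PRK was at 97.0 in prors2 and 97.3 in wild type (exact permutation, adjusted p = 0.337). Without prors2 sample 5, its highest, PRK passed as lower by -0.46 percentile points (exact permutation, adjusted p = 0.0462). In that setting 1016 of 3439 probes passed as lower and 47.8% in either direction. Leaving out any other 1 sample, PRK did not pass. PSBW was at 99.70 in prors2 and 99.63 in wild type (exact permutation, adjusted p = 0.318). With consecutive samples averaged the smallest possible p is 0.1, so no probe can pass in that setting.

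**Figure D4:**
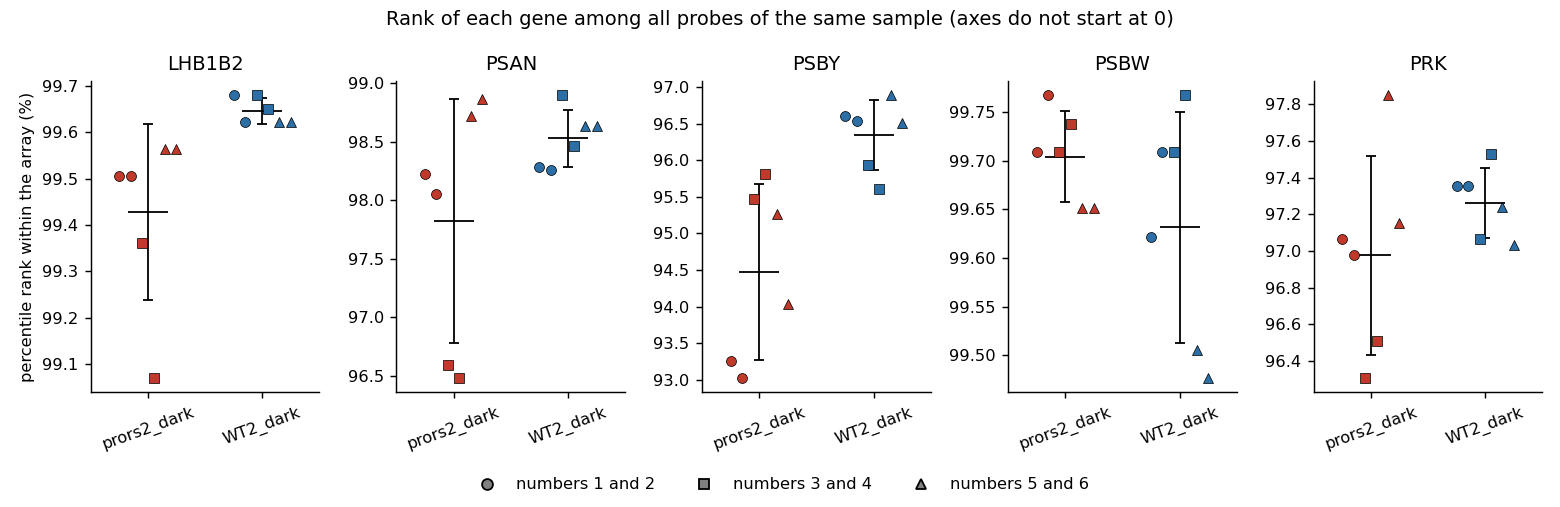
Percentile rank of each gene among the 3439 probes of the same sample, for 6 prors2_dark and 6 WT2_dark samples, with group mean and SD. LHB1B2 ranks lower in all 6 prors2 samples, and PSBY lies between 93.0 and 95.8 in prors2 against 95.6 to 96.9 in wild type. The axes differ between panels and do not start at 0.

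A ratio of 2 genes in the same sample does not change when that sample is multiplied by any factor, so it is the same as deposited and after median centring. It can still change with quantile normalization, whose values are given beside the ratios below. Only the change of a ratio between groups is read here, since different probes need not bind with equal strength. All 10 ratios between the 5 genes were tested by exact permutation, 2-sided, on log2 ratios of deposited intensities, with Benjamini-Hochberg adjustment over the 10. Of these, 2 passed. Both contain LHB1B2, which was written as the numerator in all of its pairs.

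LHB1B2 relative to PRK ran from 4.29 to 6.90 with a median of 5.91 in prors2, and from 7.50 to 10.9 with a median of 8.55 in wild type. The groups did not overlap, and all 3 sets of consecutive numbers had lower ratios in prors2. How often ratios of other pairs of probes separate the groups was not tested. Of single probes above 0 in all 12 samples, 53.6% did not overlap between groups in either direction. The mean log2 ratio differed by -0.66, a factor of 0.633 (exact permutation p = 0.00216, adjusted p = 0.0216). It kept an adjusted p under the threshold on quantile-normalized values, where the difference was -0.48 (exact permutation, adjusted p = 0.0216), and without any 1 of the 12 samples (adjusted p from 0.0216 to 0.0433). Averaged over consecutive samples, the 3 prors2 values still lay below the 3 wild-type values (exact permutation p = 0.1, the smallest possible). The call was lost in that setting (adjusted p = 0.5) and without any 1 set of consecutive numbers (exact permutation, adjusted p = 0.286 without 1 and 2, 0.0571 without 3 and 4, and 0.143 without 5 and 6), with differences from -0.75 to -0.57. In these designs p cannot be below 0.1 and 0.0286.

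LHB1B2 relative to PSBW ran from 0.351 to 0.777 with a median of 0.534 in prors2, and from 0.701 to 1.22 with a median of 1.02 in wild type. The groups overlapped through prors2 samples 5 and 6 and wild-type sample 4. The mean log2 ratio differed by -0.83 (exact permutation p = 0.00649, adjusted p = 0.0325). This call was lost on quantile-normalized values, where the difference was -0.81 (exact permutation, adjusted p = 0.0758). It was also lost without prors2 sample 4 and without wild-type sample 1, 2, 3, 5 or 6 (adjusted p from 0.0541 to 0.0649).

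The other 8 ratios did not pass, with adjusted p from 0.278 to 0.671. For LHB1B2 relative to PSAN the difference was -0.24 and relative to PSBY -0.40, neither past the threshold, which does not show that these genes differed alike. On quantile-normalized values the differences were -0.09 relative to PSAN and 0.04 relative to PSBY, so the direction of the second turned, as did that of PSAN relative to PSBY, from -0.16 as deposited to 0.13. PSBY relative to PSBW differed by -0.43 as deposited and by -0.85 after quantile normalization (exact permutation, adjusted p = 0.0866). The widest spread in prors2 was that of PSAN relative to PSBY and to PSBW, with an SD of the log2 ratio of 0.84 and 0.83. PSAN relative to PSBY ran from 1.27 to 4.85 in prors2 and from 2.20 to 4.66 in wild type, with its 2 lowest values in prors2 samples 3 and 4. PSBW relative to PRK differed by 0.17, with a range from 5.98 to 12.9 in prors2 and from 7.45 to 11.7 in wild type.

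**Figure D5:**
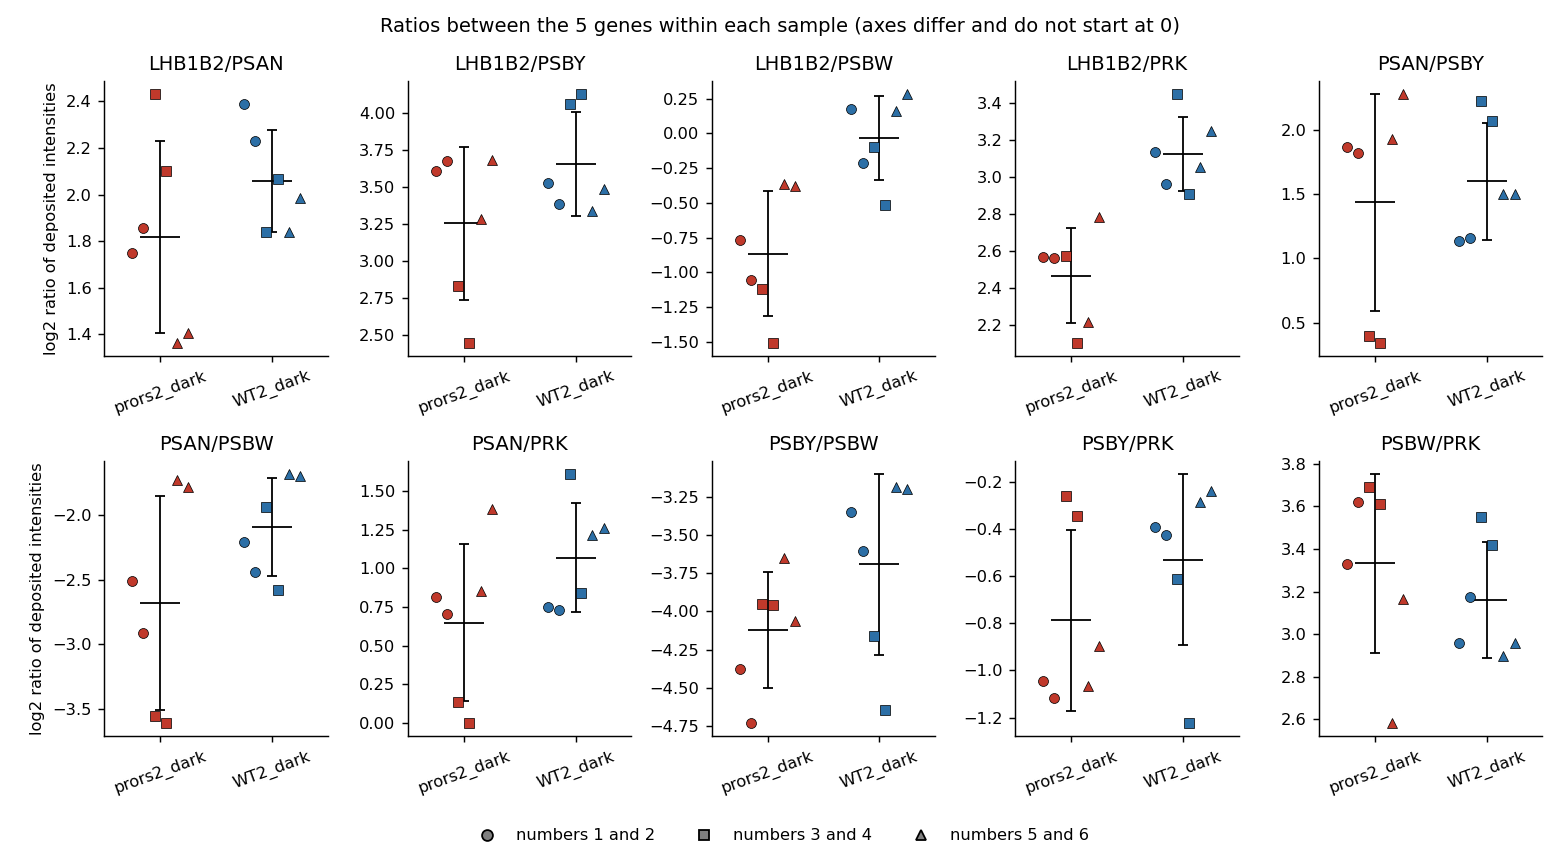
Log2 ratio of deposited intensities for the 10 pairs of genes in each of the 6 prors2_dark and 6 WT2_dark samples, with group mean and SD. LHB1B2/PRK is the ratio whose groups do not overlap. The axes differ between panels and do not start at 0.

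For the pathway as a whole, lists of 87 nuclear genes of photosystem I, photosystem II, the light-harvesting proteins, the cytochrome complex and electron carriers, the plastid ATP synthase and the Calvin cycle were matched to the array. Of these, 7 have a probe of their own: the 5 genes above, PSB27 and SBPASE. PSB27, which takes part in the assembly and repair of photosystem II, had an intensity from 0.686 to 3.25 with a median of 1.49 in prors2, and from 0.728 to 1.35 with a median of 1.11 in wild type. In prors2 its set means were 3.05, 0.745 and 1.49. The difference did not pass after quantile normalization (log2 difference 0.30, limma, adjusted p = 0.566) or as deposited (0.51, limma, adjusted p = 0.253). SBPASE, the Calvin cycle phosphatase that acts on sedoheptulose bisphosphate, was listed at 0 in 6 of 6 prors2 samples and in 5 of 6 wild-type samples, with 0.0358 in the remaining one, and was not tested. Thus 0 of the 6 tested genes of these lists passed in either direction after quantile normalization with limma, where 45.6% of all features did. As deposited 2 of the 6 passed as lower, where 5.37% of all features and 17.9% of the 671 brightest did. With median centring all 6 passed as lower, where 33.7% and 75.4% did, with PSB27 at -1.07 (limma, adjusted p = 0.0102). Another 18 loci, for proline metabolism and prolyl-tRNA synthetases, dark-induced genes and markers of seed, pollen and root, had no probe of their own, so other tissues could not be checked for.

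The genes most like each of the 5 were found by Pearson's r over the 12 samples on the quantile-normalized log2 scale, among the 367 other genes with a probe of their own and values above 0 in all samples. The points share their arrays and the 2 groups, so these values are descriptions. An r over 0.5 was common: it held for 15.3% of these genes with LHB1B2, 11.4% with PSAN, 27.2% with PSBY, 13.9% with PSBW and 5.18% with PRK. LHB1B2 was most like AT1G13990 (r = 0.94), AT2G35390 (r = 0.88) and AT1G74470, annotated as geranylgeranyl reductase of chlorophyll and tocopherol synthesis (r = 0.87). PSAN was most like AT3G26630 (r = 0.92), AT1G74470 (r = 0.87) and LHB1B2 (r = 0.81), with lower Spearman's rho of 0.72, 0.62 and 0.43. AT1G74470 had mean intensities of 2.64 in prors2 and 3.85 in wild type, and AT3G26630 of 13.4 in prors2 and 23.9 in wild type. AT1G13990 had 0.805 in prors2 and 0.921 in wild type, whereas the deposited mean of AT2G35390 was higher in prors2, at 0.400 against 0.365. On the quantile-normalized scale used for the correlations, AT2G35390 was lower in prors2, at -1.37 (log2, prors2 minus wild type). AT1G13990 was at -0.85, AT1G74470 at -0.39 and AT3G26630 at -0.25 on that scale. PSBY was most like AT3G54210 (r = 0.91), AT4G25290 (r = 0.91) and AT2G46850 (r = 0.89). Their mean deposited intensities were 0.800, 0.334 and 0.471 in prors2 against 0.712, 0.350 and 0.394 in wild type. On the quantile-normalized scale all 3 were lower in prors2, at -0.52, -1.45 and -0.92. PSBW was most like AT2G47830 (r = 0.88), AT1G62780 (r = 0.84) and AT4G38020 (r = 0.83), dim probes with mean intensities of 0.416, 0.713 and 0.701 in prors2 against 0.0944, 0.166 and 0.0879 in wild type. PRK had the lowest values, with AT5G65220 at r = 0.78, AT3G57440 at r = 0.76 and NdhS, a subunit of the chloroplast NADH dehydrogenase-like complex, at r = 0.69.

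Among the 5 genes themselves, LHB1B2 and PSAN were the most alike pair by Pearson's r over the 12 samples (r = 0.81, but Spearman's rho = 0.43), followed by PSAN and PRK (r = 0.63). Within prors2 these pairs had r = 0.88 and r = 0.86, and within wild type r = 0.01 and r = -0.86. PSBY and PSBW were the least alike, with r = -0.75 over all samples, -0.39 within prors2 and -0.80 within wild type. Each group holds 3 sets of similar samples, so these values rest on few independent points.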

How the data were processed

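The authors' deposited table holds intensities for 3439 probes and 12 samples; the steps behind them are, in the sources used here, not given. A single gene is annotated for 692 probes, several for 870 and none for 1877. Gene names came from the annotation and the TAIR10.1 gene table, which held 690 of the 692. No sequences were used. Zeros were set to missing, the rest log2-transformed, quantile-normalized and averaged per gene. The 2684 features with 3 or more such values per group were fitted with limma 3.58.1 (R 4.3.3; lmFit, eBayes; 2-sided; Benjamini-Hochberg over all of them). Ranks and ratios were tested by exact permutation over 924 splits. Both scripts were tested on simulated data. The number of arrays limits the precision. Named are the 5 genes, list genes with a probe of their own, and the 3 genes most correlated with each of the 5. Alternatives changed the normalization, zeros, filters, blocks and samples. Members, lists, tests and alternatives were chosen with earlier results of these data known.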

Additional observations from a re-analysis of the deposited data

Results flagged for a closer look

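Intensities and normalized levels of the 5 genes and PSB27, and the 10 ratios, gave 44 groups of 6 values, in which the distance of the highest or lowest sample from its neighbour was compared with Dixon's critical value. Only 1 group exceeded it, while about 1 in 20 would by chance if the 6 values were independent. Consecutive samples are similar and the groups share probes, so that rate need not hold and few flags do not show few outliers. The flagged group was PRK in wild type, where sample 3 had an intensity of 3.39 and samples 1, 2, 4, 5 and 6 ranged from 4.36 to 4.85. Leaving out wild-type sample 3, the PRK level difference was 0.02 on the log2 scale (limma, adjusted p = 0.938), and the log2 ratio of LHB1B2 to PRK differed by -0.60 (exact permutation, adjusted p = 0.0433).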

How the results depend on the processing

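Median centring put all 5 genes past the threshold as lower, where 33.7% of all features and 75.4% of the 671 brightest did. The differences (prors2 minus wild type, log2) were -2.51 for LHB1B2, -2.27 for PSAN and -2.10 for PSBY. They were, turning the direction, -1.67 for PSBW and -1.85 for PRK, and PSB27 passed as well, at -1.07. The calls of the 5 genes were also made with consecutive numbers averaged, where 26.3% of features passed as lower. PSBY and LHB1B2 passed as lower as deposited (-0.52 and -0.92), where 5.37% of all features and 17.9% of the 671 brightest did. They passed over features above 0 in all samples (-0.63 and -0.57), where 26.7% of features were lower. With zeros kept and a pseudocount of 0.05 they also passed (-0.63 and -0.57), where 21.8% were lower. LHB1B2 as deposited passed also with consecutive numbers averaged (-0.92), where 1.83% were lower. PSBY passed with trend and robust settings (-0.46), in numbers 1 and 2 alone (-0.93) and without numbers 3 and 4 (-0.77). Of all features, 20.8%, 25.5% and 20.8% passed as lower there. PSAN passed in numbers 3 and 4 alone (-1.35), where 19.1% of features were lower. PSBW passed as higher in numbers 5 and 6 alone (0.59) and with the set as a fixed block (0.39), where 22.2% and 30.3% did. Leaving out 1 sample, PSBY ranged from -0.53 to -0.39. It passed without prors2 sample 4 or wild-type sample 4, where 20.2% and 19.8% of features passed as lower. No call of the 5 genes changed with the dimmest 25% of features removed, with 2 values above 0 per group as the minimum, or, after quantile normalization of all features, with consecutive numbers averaged or as a random block. Averaging ended the calls of PSBY and LHB1B2 over features above 0 in all samples and that of PSBY as deposited. The cause of these changes was not tested.

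Of all features, 671 were higher and 554 lower. As deposited these were 1869 and 144, with median centring 653 and 905, with consecutive numbers averaged 307 and 208, with these as a random block 358 and 313, and without numbers 5 and 6 445 and 405. With consecutive numbers averaged they were 1381 and 45 as deposited, 367 and 647 median centred, and 253 and 256 over features above 0 in all samples. Settings with pairs left out or averaged on another scale were chosen after seeing the data. Ranks called 1793 probes, 935 among those above 0 in all samples, and 0 with consecutive numbers averaged, where no p can be below 0.1 (exact permutation; 0 at an unadjusted p under 0.05).

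Same-numbered samples deviated together weakly, with all correlations above 0 (from 0.053 to 0.164 over 1940 features). In both directions, 3 of 6 numbers matched best with themselves. Whether the numbers are pairs cannot be told from this, and the main fit did not take them as pairs. With the replicate number as a block none of the 5 genes passed and 669 features were higher and 540 lower. Of the 10 ratios, 2 passed, 1 on quantile-normalized values, and 1 to 2 leaving out 1 sample. With the replicate block, the signs of the differences between same-numbered samples were flipped, and 0 passed (LHB1B2 to PRK: exact sign-flip test, adjusted p = 0.104). With consecutive numbers averaged or with a set left out, 0 passed as well. These designs have few possible sign patterns or splits, and their smallest p is 0.0312, 0.1 and 0.0286. The p of LHB1B2 to PRK was at that smallest value in each.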
